A study of Mus musculus with 6 samples.

Results

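The genes described here form the angiopoietin and VEGF systems, which signal to the endothelial cells of blood and lymphatic vessels. They are 10 genes, of which 5 encode ligands (Angpt1, Angpt2, Angpt4, Vegfa and Vegfc) and 5 encode receptors (Tek, Tie1, Kdr, Flt1 and Flt4). Each was taken through the array probe sets whose platform annotation names that gene and no other, which gave 20 of the 45037 probe sets on the array that are not controls, and 10 of 18193 genes. Where a gene had several, the brightest on average over the 6 arrays stood for it.

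Angiopoietins bind Tek, the receptor tyrosine kinase also called Tie2, on endothelial cells. Angpt1 activates it and stabilises vessels, whereas Angpt2, released from endothelial stores, is known in the ovary as a context-dependent antagonist of Angpt1 at sites of vessel growth and regression. Vegfa drives the sprouting of capillaries through Kdr and is bound by the decoy-like receptor Flt1, and Vegfc acts through Flt4 on lymphatic vessels. The adult ovary remodels its vessels with each follicle and corpus luteum.

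Whole ovaries were compared between female mice of 2 genotypes aged 8 months, bred from heterozygotes of the 129T2 svEmsJ background. FORKO mice lack the receptor for follicle-stimulating hormone, with every variant of the receptor deleted per the genotype label, and WT mice carry the wild-type gene. Each genotype had 3 samples, labelled as biological replicates, and the pooled ovaries of each sample went to an Affymetrix mouse expression array of their own. The labels do not say how many mice made up a sample, so the tests reflect only how far these samples vary. Free-text fields of the FORKO samples mention wild-type tissue, against their titles and genotype field, which were used here.

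The deposited signals had trimmed means of 80.2 to 97.9 per array, and arrays were scaled to the same trimmed mean. Every signal below is such a scaled signal, given for replicates 1, 2 and 3 or as mean ± SD (n = 3). Changes are given as log2(signal + 5.73) in FORKO less that in WT, a scale that understates changes of dim probe sets. A gene rose or fell where limma's test over all 22519 tested probe sets gave an adjusted p below 0.05. Fshr, the deleted receptor, read 99.6, 59.5 and 118.8 in WT and 1.2, 11.2 and 11.7 in FORKO, and fell by 2.90 ± 0.39 on the log2 scale (SE; limma adjusted p = 0.0102). Where its probes lie relative to the deletion is not known here. FORKO replicate 1 stood apart, with a correlation over probe sets of 0.934 and 0.936 with the other FORKO arrays, which correlated at 0.976. Without it 864 probe sets passed in place of 372, and values that moved much without it are given beside the results.

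Of the 9 genes that could be tested, 2 rose in FORKO ovaries, Angpt2 and Angpt4, and 7 did not pass. Among all 11202 genes tested, 1.30% rose. None of the 9 fell, against 0.839% of all genes. One of them, Vegfc, was lower at an unadjusted p below 0.05 in limma's test, as were 8.17% of all genes; in either direction 16.8% of all genes had such a p. Over all probe sets, 1.65% passed in either direction, of which 64.0% were higher in FORKO (50.4% with arrays scaled to the same median and 83.9% with scaling to bacterial spikes). With the replicate number as a block, 692 probe sets passed in place of 372, and Angpt2 and Angpt4 were again the only ones of the 9 genes. The median change of the 9 genes was 0.15, against -0.02 for all genes tested, but it ranged from -0.03 without FORKO replicate 2 through 0.02 without WT replicate 2 and 0.05 without WT replicate 1 to 0.29 without FORKO replicate 1. Both rises were in ligands of Tek, and no receptor passed. In whole ovary, fewer cells of a type and less RNA per cell cannot be told apart.

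**Figure D1:**
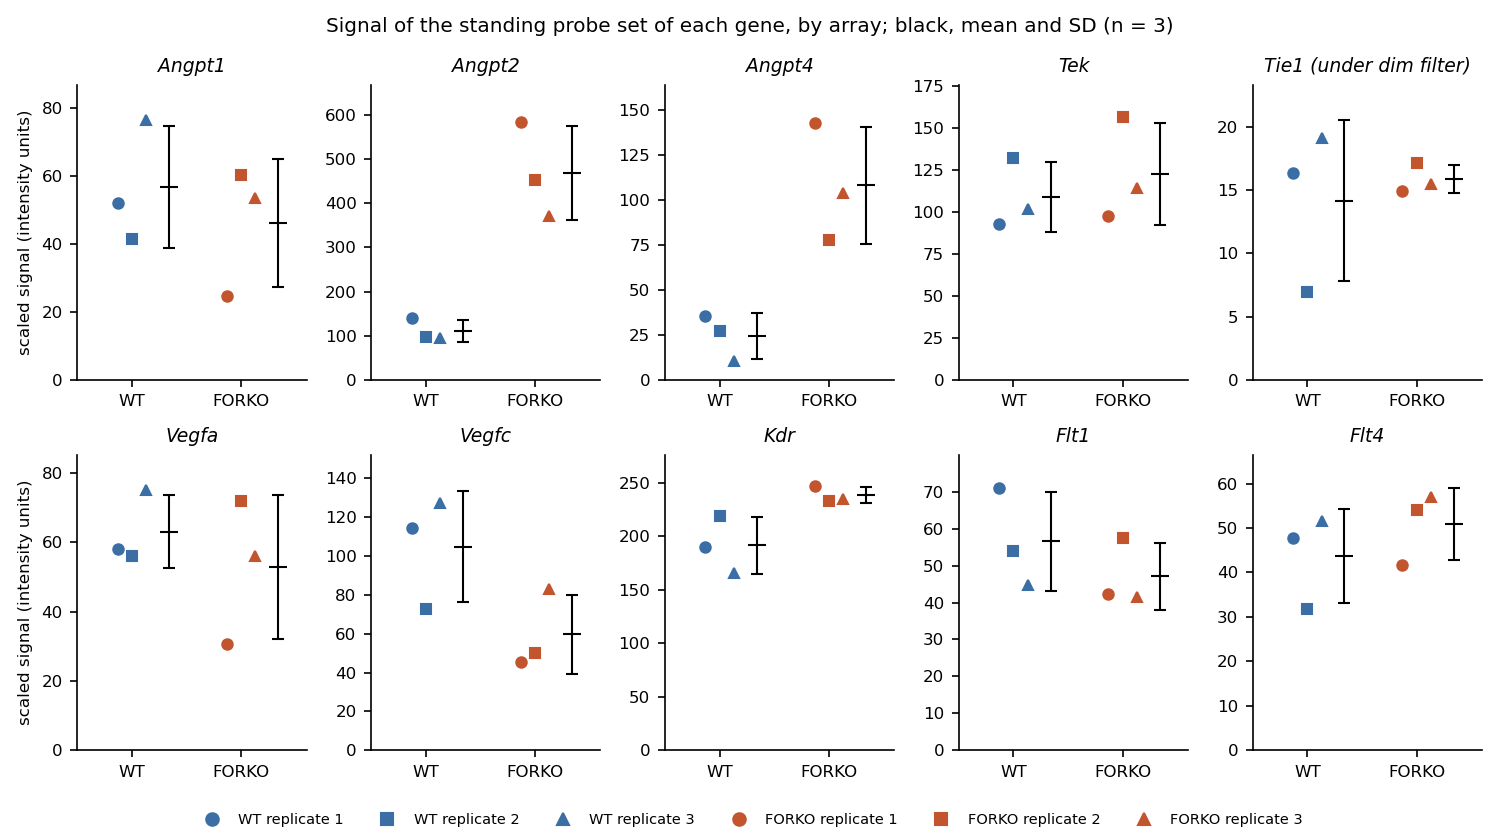
Scaled signal (intensity units, linear axis from 0) of the standing probe set of each of the 10 genes. Coloured symbols are the 3 WT and 3 FORKO arrays, and black bars show the mean and SD. Angpt2 and Angpt4 are the 2 genes that rose, from 110 to 469 and from 24.5 to 108 on average.

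Angpt2 rose in every fit that was run. Its signal was 140.1, 97.0 and 94.3 in WT and 583.1, 452.6 and 371.5 in FORKO. All FORKO arrays lay far above all WT arrays, with FORKO replicate 1 and WT replicate 1 the highest of their groups. The mean rose from 110 ± 25.7 to 469 ± 107, a ratio of 4.25 and a log2 change of 2.03 ± 0.22 (SE; 95% interval 1.53 to 2.53, limma adjusted p = 0.00426). Angpt2 ranked 18 of 11202 genes by p and 50 by size of rise. The exact two-sided permutation p was 0.1, which is the smallest that 3 arrays against 3 allow. The adjusted p was below the threshold in each of 6 fits that left out an array, and without FORKO replicate 1 the change was 1.86 (limma adjusted p = 2.97e-04).

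A further Angpt2 probe set was under the filter on dim signals and was not tested. It read 11.9, 4.0 and 10.4 in WT and 20.7, 12.0 and 23.1 in FORKO. FORKO arrays were above WT arrays, but FORKO replicate 2 (12.0) and WT replicate 1 (11.9) nearly met. At such dim signals this order adds no support to the rise. Angpt2 overlaps Mcph1 in the GRCm38.p6 gene table, a gene of chromosome condensation and DNA repair. Mcph1 read 133.9, 61.5 and 129.0 in WT and 70.1, 127.0 and 76.6 in FORKO (log2 change -0.20, limma adjusted p = 0.836), so its arrays overlapped between groups.

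Angpt4, a ligand of Tek that is less studied in the ovary, read 35.5, 27.3 and 10.7 in WT and 142.8, 77.9 and 103.8 in FORKO. The groups did not overlap, although the WT arrays were dim and scattered, with replicate 3 lowest. Its mean rose from 24.5 ± 12.6 to 108 ± 32.6, a ratio of 4.41 and a log2 change of 1.97 ± 0.35 (SE; 95% interval 1.20 to 2.75, limma adjusted p = 0.0261). The call depended on single arrays: the limma adjusted p was 0.0955 without WT replicate 2, 0.0648 without WT replicate 3 and 0.0780 without FORKO replicate 3. It was 0.0108 without FORKO replicate 1. The other Angpt4 probe set did not pass. That probe set read 18.2, 10.2 and 20.4 in WT and 36.3, 26.4 and 20.0 in FORKO, where the lowest FORKO array lay just under the highest WT array (log2 change 0.60 ± 0.30, SE; limma adjusted p = 0.400). Its mean was under the dim filter of 20.3 in WT, at 16.3, and it was tested only because FORKO was brighter, so its direction adds no support to the rise.

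Angpt1, the activating ligand of Tek made by perivascular cells, did not pass. Its standing probe set read 52.1, 41.4 and 76.4 in WT and 24.7, 60.2 and 53.3 in FORKO, so that the groups overlapped. The log2 change was -0.31 (95% interval -1.03 to 0.42, limma adjusted p = 0.734) and became 0.04 without FORKO replicate 1, the lowest array. The other Angpt1 probe set was dim throughout, at 1.2 to 6.4, and was not tested.

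Because Angpt1 and Angpt2 act on the same receptor, the difference of their log2 signals was taken within each array and compared between genotypes. Set to a WT mean of 0, it was 0.42, 0.21 and -0.63 in WT and 3.36, 1.88 and 1.76 in FORKO. Every FORKO array was above every WT array, with replicate 1 highest. The means differed by 2.33 on the log2 scale, a 5.04-fold shift towards Angpt2 (exact two-sided permutation p = 0.1, the smallest possible). Without FORKO replicate 1 the difference was 1.82. This compares the change of the ligands and not their absolute levels, which probe sets do not give.

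**Figure D2:**
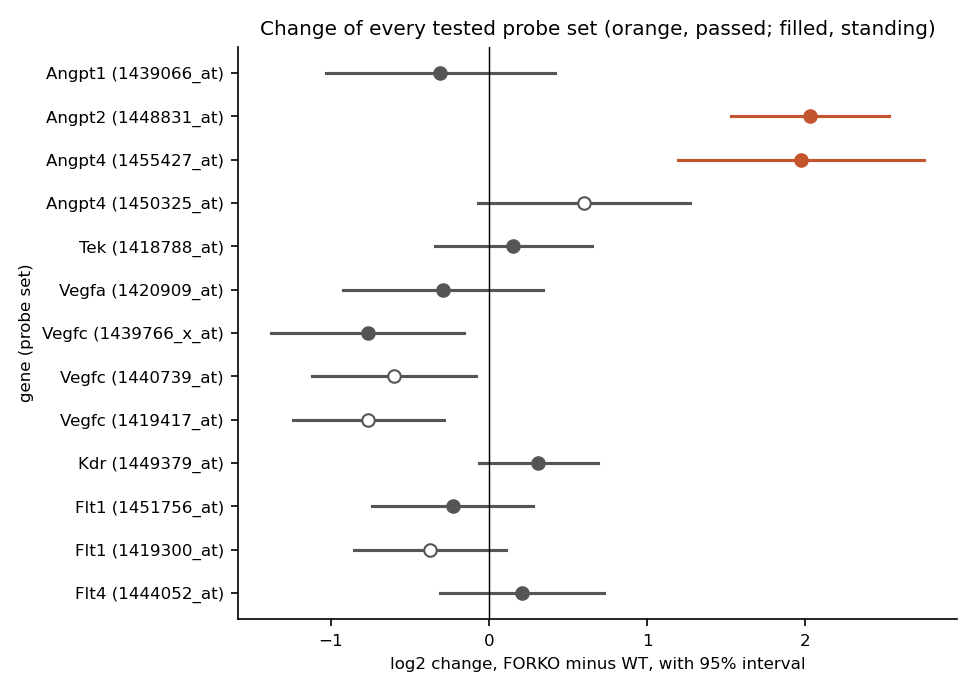
Log2 change (FORKO minus WT, horizontal axis) with its 95% interval for the 13 tested probe sets of these genes, named with their array identifiers. Filled points stand for their gene and orange marks the 2 that passed. The intervals of the 3 Vegfc probe sets lie below 0 although none passed after adjustment.

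Vegfa, the main angiogenic ligand of growing follicles and corpora lutea, read 58.0, 56.0 and 75.2 in WT and 30.7, 72.0 and 56.1 in FORKO. The groups overlapped, with FORKO replicate 1 lowest. The log2 change was -0.29 ± 0.28 (SE; 95% interval -0.92 to 0.34, limma adjusted p = 0.710), and it was 0.02 without FORKO replicate 1. A further Vegfa probe set was near the floor of the arrays, at 0.9 to 4.1, and was not tested.

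Vegfc, the lymphangiogenic ligand, had lower means in FORKO at all 3 of its probe sets, none of which passed. The standing probe set, of a kind that can bind related transcripts, read 114.3, 72.6 and 127.2 in WT and 45.6, 50.2 and 82.8 in FORKO. FORKO replicate 3 lay above the lowest WT array (log2 change -0.77, 95% interval -1.38 to -0.15, limma adjusted p = 0.230). The second read 97.1, 54.8 and 90.3 in WT and 47.0, 50.6 and 52.4 in FORKO. The remaining probe set read 84.1, 54.1 and 74.4 in WT and 35.9, 38.6 and 42.3 in FORKO. For both, all FORKO arrays were below all WT arrays (log2 changes -0.60 and -0.76, limma adjusted p = 0.270 and 0.125). The mean Vegfc signal in FORKO was 43.1%, 38.1% and 45.1% below that in WT at the 3 probe sets.

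Receptor signals did not pass in FORKO ovaries. In limma's test 0 of 4 tested receptors had an unadjusted p below 0.05, against 16.8% of all genes. So few receptors cannot be told apart from that share. Tek, the angiopoietin receptor, read 92.6, 132.1 and 101.5 in WT and 97.5, 156.4 and 114.0 in FORKO, with wide overlap of the groups, although FORKO was higher in all 3 pairs of the same replicate number. Its log2 change was 0.15 ± 0.22 (SE; 95% interval -0.34 to 0.65, limma adjusted p = 0.818). It was 0.15 ± 0.15 with the replicate block (SE; limma adjusted p = 0.621) and 0.30 without FORKO replicate 1. Tie1, the related receptor that binds no angiopoietin directly but modulates Tek, was under the dim filter at 16.4, 7.0 and 19.2 in WT and 15.0, 17.1 and 15.5 in FORKO.

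Kdr, the main signalling receptor for Vegfa, read 190.2, 218.8 and 165.8 in WT and 246.7, 233.1 and 234.5 in FORKO. All FORKO arrays were above all WT arrays by a small margin, but the test did not pass (log2 change 0.31, 95% interval -0.06 to 0.69, limma adjusted p = 0.438). Kdr, Angpt2 and Angpt4 were the 3 of 9 genes with all FORKO arrays above all WT arrays, which held for 10.7% of all genes tested. For 0 of 9 all FORKO arrays were below, against 12.0% of all genes. These counts use the standing probe set of each gene. The other tested Vegfc probe sets had all FORKO arrays below all WT arrays.

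Flt1, which binds Vegfa strongly and signals weakly, had 4 probe sets, of which 2 could be tested. The standing one read 71.0, 54.0 and 44.7 in WT and 42.3, 57.5 and 41.5 in FORKO, and the other 50.0, 43.5 and 57.3 and 38.5, 44.1 and 30.5. Both overlapped between groups (log2 changes -0.23 and -0.37, limma adjusted p = 0.714 and 0.476). Flt4, the Vegfc receptor, read 47.8, 31.8 and 51.5 in WT and 41.6, 54.0 and 57.0 in FORKO, with overlap (log2 change 0.21, 95% interval -0.31 to 0.73, limma adjusted p = 0.749). The other 2 Flt1 probe sets, at 2.0 to 17.7, and the other Flt4 probe set, at 3.2 to 15.7, were under the dim filter. Vegfc and its receptor thus had changes of opposite sign, neither of which passed.

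**Figure D3:**
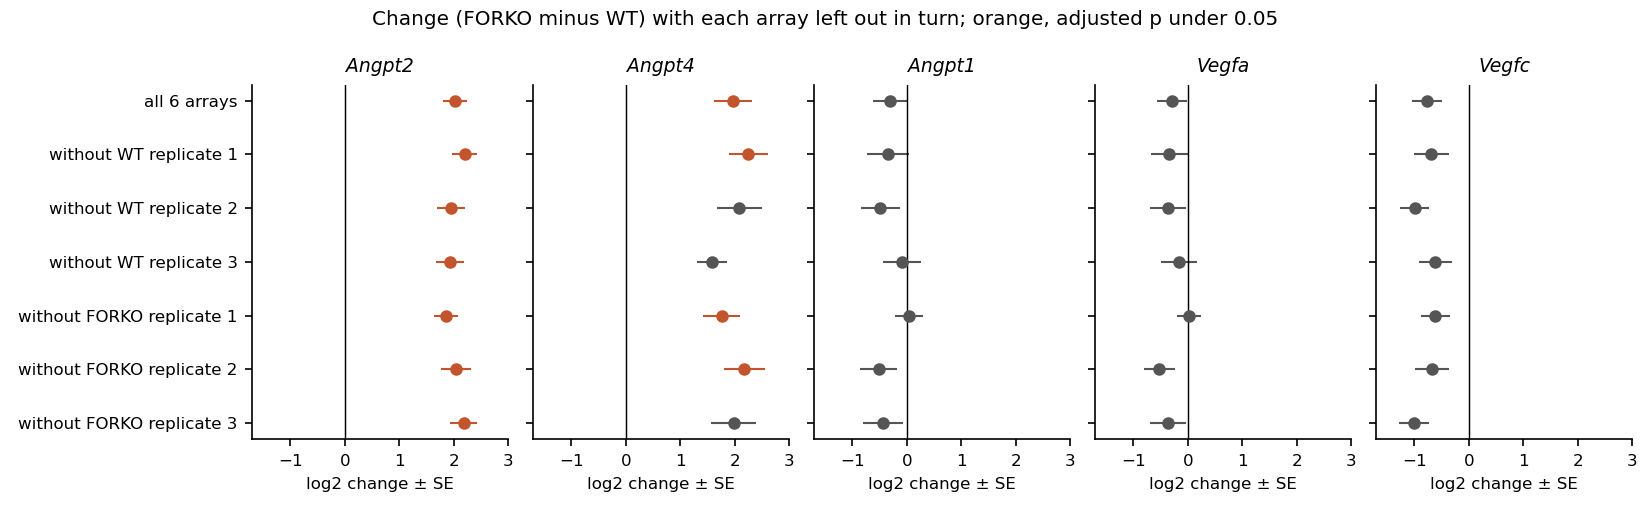
Log2 change (FORKO minus WT) ± SE of the 5 ligands with all 6 arrays and with each array left out in turn. Orange points have a limma adjusted p below 0.05: all 7 fits for Angpt2 and 4 of 7 for Angpt4. Angpt1 and Vegfa move to 0.04 and 0.02 without FORKO replicate 1.

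Promoter letters are shown as a description for Angpt4, the gene that rose and had an entry, and Vegfc, which did not pass but had lower means at all its probe sets. Of the 10 genes, 8 had an entry in the RefSeq promoter table (build GRCm38.p6), and the 250 bases before the start are printed. Motifs searched on both strands were the hypoxia response core (ACGTG or GCGTG), the cAMP response element core TGACG, the forkhead core TGTTTAC and the ETS core CCGGAA. Capitals mark matches. The sequences are Angpt4 at chr2:151910957-151911206 and Vegfc at chr8:54077282-54077531, both on the + strand.
Angpt4: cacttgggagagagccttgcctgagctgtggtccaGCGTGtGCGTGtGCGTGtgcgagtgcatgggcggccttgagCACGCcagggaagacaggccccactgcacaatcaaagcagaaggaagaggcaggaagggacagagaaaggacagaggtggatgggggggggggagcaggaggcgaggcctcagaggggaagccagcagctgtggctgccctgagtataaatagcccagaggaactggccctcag
Vegfc: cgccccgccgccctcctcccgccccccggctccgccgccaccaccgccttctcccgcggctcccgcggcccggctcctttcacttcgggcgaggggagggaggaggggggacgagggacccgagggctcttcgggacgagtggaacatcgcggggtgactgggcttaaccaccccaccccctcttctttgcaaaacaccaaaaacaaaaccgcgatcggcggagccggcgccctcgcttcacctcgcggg

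Angpt4 held 4 hypoxia response cores, 3 of them in a short repeat, at 215, 209, 203 and 174 bases before the start, and none of the other motifs. Vegfc matched none of the 4 motifs. Among all 32851 promoters of this length 38.6% held the hypoxia core, 17.8% the cAMP core, 3.17% the forkhead core and 12.0% the ETS core. Kdr and the first of the Vegfa starts held 2 hypoxia cores each and Flt1 held 1, and cAMP cores were found 2 times for Flt1 and once for Vegfa. Kdr was the only one of the 8 with an ETS core, and Tek, Tie1 and Flt4 had no match. These matches describe letters and not bound sites, and whether they relate to the signals was not tested.

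Genes around these systems were taken from lists of further VEGF ligands, receptor partners, targets and oxygen sensing. No tested gene of these 6 lists passed in limma's test. For the counts in the lists below, 16.8% of all genes tested had an unadjusted p below 0.05 in either direction. Without FORKO replicate 1, a fit taken up for the lists after seeing the data, Vegfd, Foxo1, Thbs1 and Egln3 passed, all higher in FORKO. In that fit 864 of 22519 probe sets passed, 597 of them higher in FORKO, against 372 with all arrays. Among 4 further VEGF ligands and co-receptors the median log2 change was -0.07 (0.10 without FORKO replicate 1), and 1 had an unadjusted p below 0.05. This was Vegfb, a ligand of Flt1, at 62.2, 62.1 and 62.6 in WT and 42.3, 43.9 and 49.1 in FORKO (log2 change -0.42, limma adjusted p = 0.317). All its FORKO arrays were below the tight WT arrays. Vegfd, the other lymphangiogenic ligand, read 33.1 ± 2.31 in WT and 24.8, 58.1 and 80.9 in FORKO, with overlap (log2 change 0.51, limma adjusted p = 0.557). Without replicate 1, its lowest FORKO array, the change was 0.94 (limma adjusted p = 0.0438). Pgf was under the dim filter.

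Of 5 tested partners of the angiopoietin receptor, 0 had an unadjusted p below 0.05 in limma's test. The median log2 change was -0.06 with all arrays and 0.06 without FORKO replicate 1. Grb14, an adaptor of receptor kinases, read 1567 ± 31.1 in WT and 591.1, 1509.4 and 1556.5 in FORKO, where the first array alone was low. Its log2 change was -0.49 with all arrays and -0.03 without that array. The integrin gene Itgb1 read 265 ± 57.5 in WT and 310 ± 62.1 in FORKO.

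Targets of VEGF and Tek signalling in endothelium were mixed, with 7 of 11 positive and a median of 0.08 (0.27 without FORKO replicate 1). At an unadjusted p below 0.05, 2 of the 11 differed, in opposite directions. Klf2, a transcription factor of quiescent, flow-exposed endothelium, read 39.9, 35.7 and 48.4 in WT and 131.0, 70.0 and 79.7 in FORKO, without overlap (log2 change 1.04, limma adjusted p = 0.0815). Aplnr, the apelin receptor, read 773.3, 823.0 and 511.8 in WT and 106.7, 626.1 and 390.8 in FORKO, where replicate 1 was far below the others (log2 change -1.19, limma adjusted p = 0.327, and -0.47 without replicate 1).

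Among 7 feedback and inhibitor genes, 6 were positive with a median of 0.53 (0.38 without FORKO replicate 1). An unadjusted p below 0.05 was found for 3 of the 7, none passing. Adamts1, a protease that binds and sequesters Vegfa, read 119.5, 262.3 and 185.3 in WT and 83.4, 102.5 and 91.8 in FORKO. All FORKO arrays were below all WT arrays (log2 change -0.92, limma adjusted p = 0.132). Sema3f, a neuropilin ligand, read 44.6, 44.7 and 188.7 in WT and 116.5, 151.2 and 147.7 in FORKO, where WT replicate 3 was the highest of all.

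Oxygen sensing and hypoxia response genes did not share a direction. Of 9 sensing genes 7 were positive (median 0.18, and 0.26 without FORKO replicate 1). Of 11 response genes 4 were positive (median -0.14, and -0.03 without FORKO replicate 1). In each list 2 had an unadjusted p below 0.05 and none passed. The prolyl hydroxylase gene Egln3 read 5.0, 17.9 and 15.4 in WT and 13.9, 48.2 and 40.1 in FORKO (log2 change 1.06, limma adjusted p = 0.302). Without FORKO replicate 1 the change was 1.51 (limma adjusted p = 0.0324). Hif3a read 19.2 ± 4.39 in WT and 41.2 ± 14.7 in FORKO without overlap (limma adjusted p = 0.211). Both of these sensing genes had WT means under the dim filter and were tested only because FORKO was brighter, which favours a positive sign in that list. Bnip3, which acts in mitophagy, read 778 ± 68.1 and 505 ± 141, and Ldha, lactate dehydrogenase A, 1279 ± 141 and 945 ± 126. Both had all FORKO arrays below all WT arrays (limma adjusted p = 0.181 and 0.228).

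**Figure D4:**
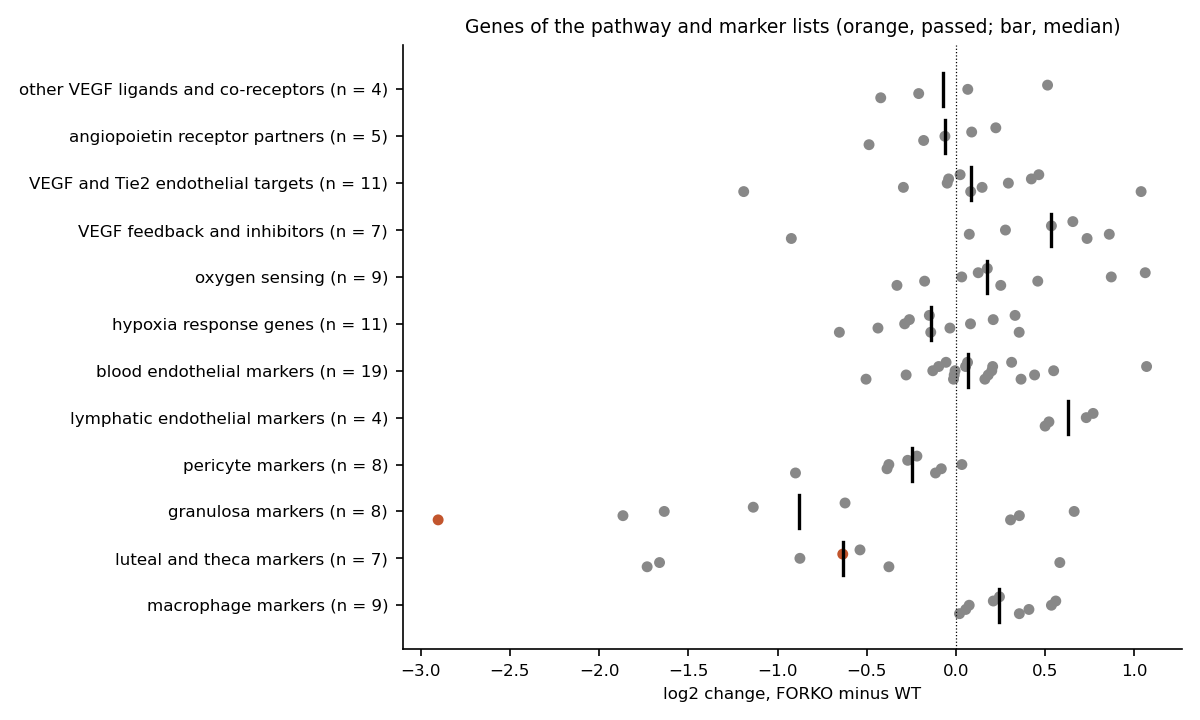
Log2 change (FORKO minus WT, horizontal axis) of each tested gene in 12 lists, leaving out the 10 genes of the report; n is the number of genes tested and black bars are medians. Orange marks the genes that passed, Fshr (the deleted gene) and Fdx1, both lower in FORKO. Blood endothelial markers centre near 0 (median 0.06) and the 4 lymphatic markers all lie above 0.

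Blood endothelial markers were measured to set the ligands and receptors beside the vessels themselves. Of 21 markers outside these systems 19 were tested, 0 passed in limma's test, 2 had an unadjusted p below 0.05, 11 were positive and the median change was 0.06. Without FORKO replicate 1, 16 were positive and the median was 0.23. Their summed signal was 2311 to 2400 in WT and 2648 to 2699 in FORKO. Bright genes weigh most in this sum, and Vwf alone averaged 111 in WT and 252 in FORKO. The WT mean of 1 marker was under the dim filter, and it was tested only because FORKO was brighter. Cldn5, an endothelial tight junction gene, read 366 ± 36.5 and 418 ± 74.1, and Mmrn2 read 352 ± 41.2 and 397 ± 76.9, both with overlap. Pecam1, a defining endothelial marker, was under the dim filter with 2.0 to 16.8, as was Tal1. Vwf, chosen after its values were seen because its protein is stored with Angpt2 in endothelial granules, read 134.0, 109.5 and 89.3 in WT and 387.1, 177.0 and 190.8 in FORKO. Its groups did not overlap, with replicate 1 highest as for Angpt2 (log2 change 1.07, limma adjusted p = 0.118, and 0.72 without FORKO replicate 1). Clec14a, an endothelial surface lectin and the other marker with an unadjusted p below 0.05, went the other way. It read 163.4, 237.2 and 229.6 in WT and 130.3, 163.6 and 141.4 in FORKO, where FORKO replicate 2 was just above the lowest WT array (log2 change -0.50, limma adjusted p = 0.273).

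The median deviation of the 19 markers from their WT means was -0.005, -0.04 and 0.11 in WT and -0.07, 0.29 and 0.20 in FORKO. Its group means differed by only 0.12, so subtracting it could change large differences little. After this median was subtracted within each array, Angpt2 differed by 1.91 and Angpt4 by 1.85 on the log2 scale, close to their values without it, and groups stayed apart. Vegfc differed by -0.89 and Vegfa by -0.41, with FORKO arrays below WT arrays (exact two-sided permutation p = 0.1 for each of these 4 genes, the smallest possible). The share of all genes with groups apart after this subtraction was not taken, so these 4 cannot be set against it. Before subtraction the Vegfc groups overlapped. After it, FORKO replicate 3 (-0.48) lay just below WT replicate 2 (-0.42). The exact permutation p of Vegfc was 0.2 without WT replicate 1 or 3, and without FORKO replicate 1 or 2. That of Angpt4 was 0.2 without WT replicate 3. For Vegfa the groups nearly met, with WT replicate 2 and FORKO replicate 2 both at -0.11. Its exact permutation p was 0.2 with a pseudocount of 1 and 0.3 with 32. The same p was 0.3 without WT replicate 1 or 2, and 0.2 without WT replicate 3 or FORKO replicate 1. The Vegfa difference was -0.20 without FORKO replicate 1. Tek differed by 0.03, Flt4 by 0.09, Kdr by 0.19, Flt1 by -0.35 and Angpt1 by -0.43, all with overlap (exact permutation p = 0.3 to 0.8). Without FORKO replicate 1, Angpt1 differed by -0.18 and Kdr by 0.07.

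**Figure D5:**
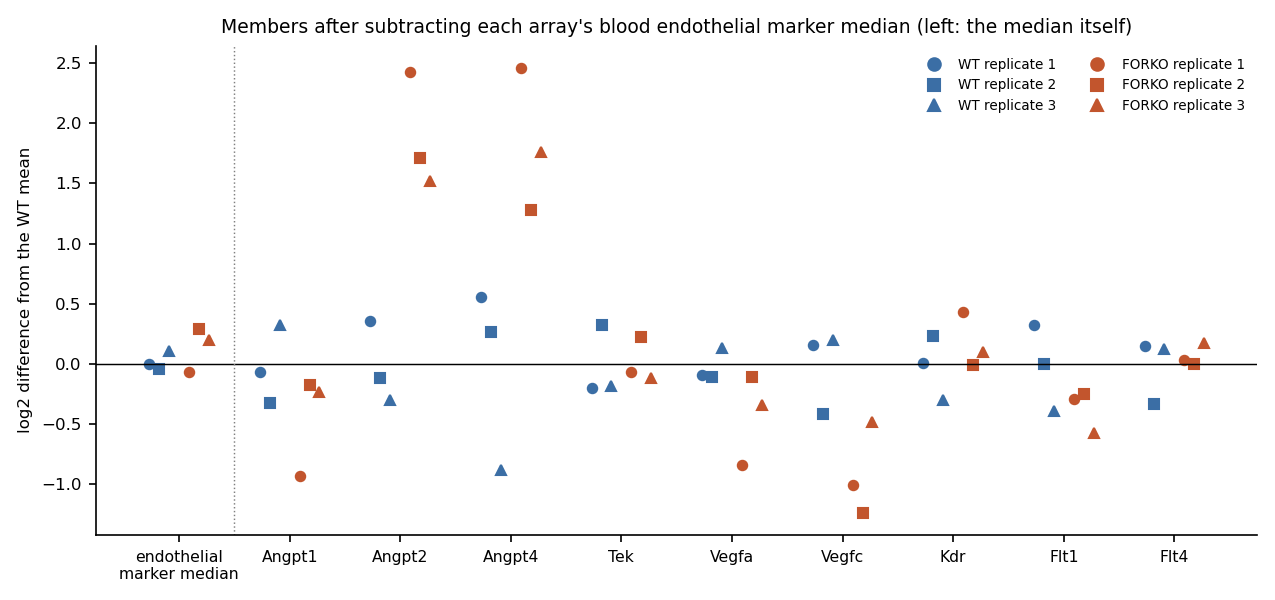
Log2 difference from the WT mean for each array (symbols) after subtracting that array's median deviation of 19 blood endothelial markers, which is plotted at the left. The 3 FORKO arrays of Angpt2 lie at 1.52 to 2.43 and those of Angpt4 at 1.28 to 2.46, above all WT arrays, while the receptors overlap between groups.

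Markers of other cell types differed between the groups or on single arrays as follows, and their part in the results was not tested. All 4 tested lymphatic markers outside these systems had positive changes without overlap (median 0.63), as had 10.7% of all genes tested. Flt4, a lymphatic marker left out here as one of the 10 genes, overlapped between groups (log2 change 0.21). Of the 4, 0 passed in limma's test and 3 had an unadjusted p below 0.05, against 16.8% of all genes in either direction. Reln passed without FORKO replicate 1 (log2 change 0.81, limma adjusted p = 0.0326), as did 864 of 22519 probe sets. Mmrn1 read 85.4 ± 10.8 in WT and 149 ± 6.95 in FORKO and Reln 111 ± 11.9 and 188 ± 17.9 (limma adjusted p = 0.0655 and 0.0770). The summed signal of the lymphatic list was 312 to 344 in WT and 496 to 577 in FORKO. Prox1, the defining lymphatic factor, was under the dim filter at 9.9 to 20.1.

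Pericyte markers, of which 8 were tested and 0 passed in limma's test (1 at an unadjusted p below 0.05), had a median of -0.24 (-0.11 without FORKO replicate 1). Their summed signal was 961 to 1200.0 in WT and 419 to 1211 in FORKO. Pdgfrb, the receptor that marks pericytes, read 434.1, 434.1 and 395.0 in WT and 115.3, 333.2 and 285.4 in FORKO, all below WT and lowest in replicate 1 (limma adjusted p = 0.249; log2 change -0.90, and -0.44 without replicate 1). Abcc9 read 221 ± 36.6 in WT and 71.9, 294.8 and 303.7 in FORKO, and its log2 change of -0.22 became 0.44 without replicate 1. Relative to WT means, the median of these markers was -0.76, 0.15 and -0.27 on the 3 FORKO arrays. Angpt1 and Vegfa were lowest on FORKO replicate 1. The medians of granulosa markers (-2.18) and of luteal and theca markers (-0.74) were also lowest there, and that of macrophage markers (0.77) was highest. Whether any of these relate to the 2 ligands was not tested.

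Of 7 tested luteal and theca markers 1 fell, Fdx1, whose ferredoxin passes electrons to steroidogenic enzymes, and 6 did not pass. The median change was -0.63 (-0.46 without FORKO replicate 1), and 5 of 7 had an unadjusted p below 0.05, against 16.8% of all genes. For 5 of 7 all FORKO arrays were below all WT arrays, against 12.0% of all genes. The summed signal of this list was 17433 to 17809.9 in WT and 12392 to 13790.0 in FORKO. Fdx1 read 4641 ± 158 and 2993 ± 249 (limma adjusted p = 0.0299). Among 8 tested granulosa markers Fshr fell, 7 did not pass and 4 had an unadjusted p below 0.05, against 16.8% of all genes. Fshr is the deleted gene, so its fall says nothing of granulosa cells. Its FORKO mean of 8.0 was under the dim filter, and it was tested only because WT was brighter. Amhr2 and Foxl2 were higher in FORKO without overlap, and Fshr, Inha and Nr5a2 lower without overlap. These were 2 and 3 of 8, against 10.7% and 12.0% of all genes. The median change of the 8, Fshr included, was -0.88 and became 0.33 without FORKO replicate 1. In that fit, where 864 of 22519 probe sets passed, Fshr and Nr5a2 fell and Esr2 rose. The summed granulosa signal was 11648 to 15485 in WT and 6014 to 14485 in FORKO. The granulosa median relative to WT means was -2.18, 0.36 and 0.30 on the FORKO arrays, with replicate 1 far below. All 9 tested macrophage markers were positive (median 0.24, and 0.04 without FORKO replicate 1; 0 passed in limma's test, 1 at an unadjusted p below 0.05). Their median was 0.77, -0.08 and -0.02 on the FORKO arrays, with replicate 1 highest. Csf1r read 903 ± 186 and 1060 ± 296 and C1qb 322 ± 65.3 and 389 ± 117.

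Correlations of log2 signals over the 6 arrays describe which genes of these systems varied together. Angpt2 and Angpt4 correlated at 0.95 and Angpt1 and Vegfa at 0.96, whereas Angpt2 and Vegfc correlated at -0.78 and Kdr and Vegfc at -0.89. These are descriptions over 6 arrays that hold the genotype difference and the low values of FORKO replicate 1. Over the 5 other arrays the same 4 pairs correlated at 0.92, 0.87, -0.67 and -0.86. Among 10844 genes compared, those most like Angpt2 were Sytl4 (r = 0.999), Dnm3 (0.996) and Tti2 (0.994). Sytl4, a regulator of granule secretion, read 770.9, 616.0 and 604.6 in WT and 1677.8, 1504.7 and 1356.2 in FORKO. It rose by 1.18 (limma adjusted p = 0.00990), with the same order of arrays as Angpt2. Sytl4 was picked for its correlation with Angpt2 over these arrays, so its array order and its rise follow from that choice. They are no separate evidence, and a shared part in granule secretion was not tested. Vegfa was most like Tmem80 (0.988), Lipt2 (0.985) and Mfap4 (0.985). Tek was most like Rpn2 (0.991), Gmeb2 (0.990) and Snx25 (0.990), and Kdr was most like Khnyn (0.991), Nfkb2 (0.978) and Gfod2 (0.976).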

How the data were processed

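The deposited values are linear array intensities. The submitters' processing notes name MAS5, with no version, target or detection calls given here. The 64 control probe sets were left out, arrays were brought to a common mean, trimmed by 2% at either end, and log2(signal + 5.73) was taken, the constant being the pooled 25th percentile. Probe sets were kept where the mean signal reached 20.3, the median of all means. The fit used limma 3.58.1 in R 4.3.3 (lmFit, eBayes with an intensity trend, two-sided) with Benjamini-Hochberg adjustment over 22519 probe sets, and was tested on simulated data. Figures used matplotlib 3.10.9. Arrays hold no counts, and their number limits the precision.

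The platform annotation names the genes, and all 20 probe sets had Entrez identifiers found in the GRCm38.p6 gene table. That table was used for names and overlaps of genes, since the array has no build; promoter sequences are from RefSeq. The genes, lists and tests were chosen with earlier results of these data known. Named besides the 10 genes were Fshr, up to 4 passing genes or the 2 largest changes per pathway list, up to 3 passing genes or the 2 brightest per marker list, and the 3 genes most like Vegfa, Angpt2, Tek and Kdr. Dim markers, the overlapping gene Mcph1, Vwf, Clec14a, Amhr2, Foxl2, Inha and genes that passed without FORKO replicate 1 are named outside this rule, after their values were seen. Same-numbered arrays' deviations from their group means correlated at 0.195, 0.134 and 0.358, and those of unlike numbers at -0.22 to 0.01. The former, all over 0.1, were taken as a sign, from the values only, that the numbers pair the samples. That sign is weak, since deviations within a group sum to 0 and a positive value forces negative ones elsewhere. The fit reported has no block and the permutation tests are unpaired; the blocked fit is an alternative. Alternatives covered scaling, pseudocount, dim filter, variance model, kinds of probe sets, replicate block, each array left out, and averaging the probe sets of a gene; list values without FORKO replicate 1 were added after seeing the data.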

Additional observations from a re-analysis of the deposited data

How the results depend on the processing

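Angpt2 passed in all 18 alternatives (log2 change 1.81 to 2.20, limma adjusted p 2.97e-04 to 0.0355). Angpt4 passed in 15 of 18 (log2 change 1.29 to 2.25, limma adjusted p 0.00778 to 0.0955). Its smallest change, 1.29, came from averaging its probe sets (limma adjusted p = 0.0447), and a pseudocount of 32 gave 1.31. Leaving out single arrays gave log2 changes of 1.59 to 2.25 and ended the call in 3 fits. The count of genes of these systems that rose was therefore 1 to 2 over the left-out arrays and 2 in every other alternative. The other 7 tested genes passed in none. Leaving out arrays moved Angpt1 from -0.52 to 0.040, Tek from -0.027 to 0.30 and Vegfa from -0.53 to 0.021. The median change of the 9 genes, 0.15, ranged from -0.027 to 0.29 over left-out arrays. Without FORKO replicate 1, an alternative chosen after seeing the data for the lists, Abcc9 turned to 0.44. Set against endothelial markers, Tek moved from -0.071 to 0.17 over the left-out arrays and to -0.0040 without cross-hybridising kinds of probe sets, and Flt4 from -0.11 to 0.17 over the left-out arrays. Over all probe sets the count was 372, against 564 with spike scaling, 221 with no dim filter, 692 with the replicate block and 62 to 864 over left-out arrays. The replicate block changed no call among the 10 genes (Angpt2 adjusted p = 0.00189, Angpt4 0.0168). Spike scaling moved the median of all genes from -0.02 to 0.14, and Angpt2 and Angpt4 then changed by 2.19 and 2.13. The 7 probe sets under the dim filter, the only one of Tie1 among them, lie where the arrays are too dim for a difference to be tested.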
